A study of Mus musculus with 3 samples.

Results

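The BCL2 family decides whether a cell undergoes mitochondrial apoptosis, and 10 of its mouse genes are described here. They were matched by gene identifier in the gene and transcript tables of every library, out of 55536 annotated genes. The 6 survival genes were Mcl1, Bcl2a1a, Bcl2a1b, Bcl2a1d, Bcl2 and Bcl2l1 (which encodes BCL-XL). The 4 death genes were Bcl2l11 (which encodes BIM), Bax, Bak1 and Bid. Each of the 10 was found in all 3 libraries. The RNA came from the chromatin fraction of C57BL/6J bone marrow-derived macrophages, primary cells grown from marrow, which had received Lipid A at 100 ng/ml for 40 min. Lipid A, the membrane anchor of bacterial lipopolysaccharide, is the ligand sensed by Toll-like receptor 4. Ribosomal RNA was depleted before total RNA sequencing. The only group holds 3 biological replicates, made from 1000, 250 and 500 ng of RNA for replicates 1, 2 and 3. Age and sex were not collected, and the 3 biosamples cite the same donor entry, so p-values measure the spread between these libraries. Untreated cells, other times and other cell fractions were not analysed here. Levels were therefore compared between genes and between replicates, and no value below is a response to Lipid A.

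Survival proteins of the family hold the pore-forming proteins BAX and BAK in check at the outer mitochondrial membrane. BH3-only proteins such as BIM and BID bind the survival proteins or activate the pore formers, which then release cytochrome c and start the caspase cascade. In macrophages, Bcl2a1 and Bcl2l1 are known NF-κB target genes, MCL1 is a protein of rapid turnover, and BIM is known to limit the lifespan of myeloid cells. RNA bound to chromatin is enriched for transcripts that are still being made or processed, so its level is not that of mature mRNA or protein.

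Total expected counts (reads divided between the transcripts they match) ranged from 12699813 to 18280033 per library, and the 10 genes together took 0.288%, 0.150% and 0.232% of them in replicates 1, 2 and 3. All 10 macrophage markers had a mean TPM (a level scaled for transcript length and sequencing depth) of at least 1, from 4.86 to 208, and their sum ranged from 755 to 854 TPM. Of 36 markers of 8 other cell types, 35 had a mean TPM below 1 and 14 were at 0 in every library. Their sum ranged from 5.59 to 6.92 TPM. The exception was the erythroid gene Alas2 at 3.38. Fibroblast markers differed between libraries, with 0, 74 and 65 expected counts for Col1a1 and 0, 60 and 47 for Col1a2 in replicates 1, 2 and 3. These values are from the gene tables made from alignments to the transcriptome (alignment-based), which are used wherever no table is named. In the alignment-free transcript table, 29 of the 36 had a mean TPM below 1 and their sum ranged from 32.5 to 46.8 TPM, against 801 to 1119 for the macrophage markers. The highest of them there was the T cell marker Cd3d, with 17.3, 14.1 and 19.3 TPM, a gene at 0 in the alignment-based tables. Col1a1 had 1.34, 1.53 and 2.34 TPM in the alignment-free table. The part of this disagreement in the results below was not tested. In bulk RNA, fewer cells of a type and less RNA per cell cannot be told apart.

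Bcl2a1 is 1 gene in humans and a set of near-identical copies on mouse chromosome 9. The stretches below show why reads cannot easily be divided between them. They are the first 90 coding bases of each copy in exons of annotation release M21, with the positions at which the copies differ in capitals (mm10; Bcl2a1a at chr9:88957051-88957140 on the + strand, Bcl2a1b at chr9:89199360-89199449 on the + strand, Bcl2a1d at chr9:88731630-88731719 on the - strand).
Bcl2a1a: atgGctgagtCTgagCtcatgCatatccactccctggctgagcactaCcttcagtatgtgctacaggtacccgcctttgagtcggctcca
Bcl2a1b: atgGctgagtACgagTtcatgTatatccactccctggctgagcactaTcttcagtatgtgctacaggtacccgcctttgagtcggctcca
Bcl2a1d: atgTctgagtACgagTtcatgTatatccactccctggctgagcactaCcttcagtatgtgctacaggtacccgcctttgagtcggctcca
These stretches hold 6 of the 12 positions that differ among the copies over 516 coding bases. Bcl2a1b and Bcl2a1d had 98.8% identical coding bases, Bcl2a1a and Bcl2a1d 98.6%, and Bcl2a1a and Bcl2a1b 97.9%. Of all 31-base words in the transcript of Bcl2a1d, 10.9% occurred in no other gene's transcripts. The share was 11.2% for Bcl2a1b and 20.4% for Bcl2a1a. Single-copy values below are therefore uncertain, and the sum of the copies is given beside them.

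Among the survival genes, Mcl1 (chr3:95658788-95663176, + strand) had the highest level, with 381, 183 and 309 TPM in replicates 1, 2 and 3, from 16899, 13254 and 20890 expected counts. Replicate 2 was lowest, and even there Mcl1 lay far above the reference gene. The reference gene is the median nuclear protein-coding gene with a mean TPM of at least 1, at 7.56, 6.64 and 6.56 TPM. On log2(TPM + 0.1), a scale that understates differences of genes near 0, Mcl1 exceeded it by 5.31 ± 0.21 (SE, n = 3, limma adjusted p = 6e-05 for a difference beyond 2-fold). It ranked 81 among protein-coding genes.

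The 3 Bcl2a1 copies, which encode the survival protein A1, summed to 221, 107 and 119.8 TPM. Their sum lay 4.34 ± 0.20 above the reference gene on the log2 scale (limma adjusted p = 0.00011, 3 of 3 libraries). Bcl2a1d had 121, 46.5 and 70.4 TPM and Bcl2a1b had 93.0, 57.7 and 46.5. Bcl2a1a stood far below both, at 6.85, 2.71 and 2.97. Bcl2a1d exceeded the reference gene by 3.39 ± 0.24 (limma adjusted p = 0.00032) and Bcl2a1b by 3.17 ± 0.18 (limma adjusted p = 0.00031). Bcl2a1a was in neither class (-0.84 ± 0.26, limma adjusted p = 0.9).

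Bcl2l1 (chr2:152780668-152831728, - strand) had 90.1, 52.6 and 81.0 TPM, with replicate 2 again lowest. It exceeded the reference gene by 3.38 ± 0.17 on the log2 scale (limma adjusted p = 0.0002). Bcl2 (chr1:106538178-106714274, - strand), the founding survival gene of the family, was the lowest survival gene, with 3.05, 1.93 and 1.88 TPM. Its difference from the reference gene was -1.59 ± 0.19 (limma adjusted p = 0.018). That call was lost in the alignment-free table, where Bcl2 had 7.62, 4.14 and 5.49 TPM (difference -0.35, limma adjusted p = 1), and without replicate 2 (limma adjusted p = 0.061) or replicate 3 (limma adjusted p = 0.11).

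Of all 10 genes, the highest TPM belonged to a death gene. Bcl2l11 (chr2:128126038-128162547, + strand) had 549, 231 and 369 TPM from 14996, 9840 and 15609 expected counts. It exceeded the reference gene by 5.68 ± 0.23 on the log2 scale (limma adjusted p = 6.2e-05) and ranked 54 among protein-coding genes. The pore-former gene Bax (chr7:45461697-45466898, - strand) had 24.2, 23.8 and 20.8 TPM, nearly the same in each library, and a difference of 1.71 ± 0.12 (limma adjusted p = 0.0015). Bak1 (chr17:27019810-27029009, - strand), the other pore-former gene, rested on few reads, with 0.53, 0.42 and 0.23 TPM from 16.0, 18.6 and 10.4 expected counts. Its difference of -3.88 ± 0.29 was called lower (limma adjusted p = 0.00033). Bid (chr6:120891930-120916853, - strand), the BH3-only gene whose protein caspase 8 cleaves, had 5.21, 4.60 and 4.28 TPM and was in neither class (-0.55 ± 0.14, limma adjusted p = 1).

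In the alignment-free table Bcl2l11 had 785, 353 and 524 TPM and Mcl1 had 509, 282 and 459, the same order in each library. There Bax had 44.4, 30.9 and 34.9 TPM, Bid 9.86, 7.75 and 10.2, and Bak1 0.517, 0.606 and 0.597. Levels of Bcl2l1 differed least between the tables, with 97.5, 43.8 and 79.2 TPM.

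**Figure D1:**
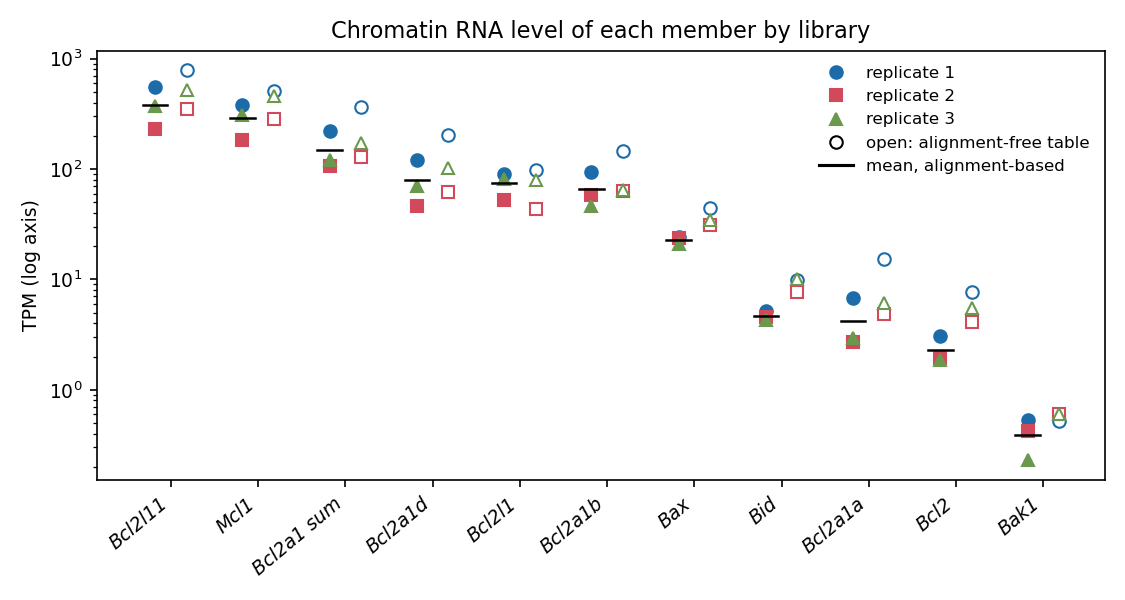
TPM (log axis) of each gene and of the sum of the Bcl2a1 copies, 1 point per library; filled points are the alignment-based gene tables, open points the alignment-free tables, and bars the mean of the filled points. Bcl2l11 and Mcl1 stand highest in both kinds of table, and Bak1 stands lowest, under 1 TPM in every library.

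In all, 6 of the 10 genes were called higher than the reference gene (limma, adjusted p under 0.05) and 2 lower. Over all 18387 genes tested, 15.1% were called higher and 52.4% lower, and over the 12278 protein-coding genes 19.5% and 44.4%. The median difference from the reference gene was 2.44 over the 10 genes and -1.09 over protein-coding genes, on the log2 scale. All 10 passed the filter of a mean TPM of at least 0.1, Bak1 with a mean of 0.393. The genes were chosen with earlier results of these libraries known, so these counts describe them and are no test of the family.

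In the order of levels by TPM, Bcl2l11 stood above Mcl1 in 3 of 3 libraries, by 0.37 ± 0.14 (SD, n = 3) on the log2 scale. Expected counts, not scaled for length, gave the reverse order in each library. Mcl1 had 16899, 13254 and 20890, and Bcl2l11 had 14996, 9840 and 15609. TPM divides by an effective length, which was 1861 to 1997 bases for Bcl2l11 and 3170 to 3205 for Mcl1. The part of the isoform division in that length was not tested. In log2 TPM, Mcl1 stood above the Bcl2a1 sum by 0.97 ± 0.34, in 3 of 3 libraries. It stood above Bcl2a1d by 1.92 ± 0.25, and the Bcl2a1 sum above Bcl2l1 by 0.96 ± 0.37, each in 3 of 3. Bcl2a1d, Bcl2l1 and Bcl2a1b formed a tier in which neighbours did not differ beyond their spread. Bcl2a1d minus Bcl2l1 was 0.02 ± 0.36 and Bcl2l1 minus Bcl2a1b was 0.21 ± 0.51, with the sign changing between libraries. In the alignment-free table, Bcl2a1d stood above Bcl2l1 in 3 of 3 libraries, by 0.64 ± 0.36. Bax followed, 1.46 ± 0.42 below Bcl2a1b and 2.26 ± 0.08 above Bid. Bid and Bcl2a1a were not separated (0.29 ± 0.60). Bcl2a1a stood 0.75 ± 0.35 above Bcl2, and Bcl2 stood 2.29 ± 0.31 above Bak1. An exact sign-flip permutation test over 3 libraries cannot give a two-sided p below 0.25. Among the 9 neighbouring pairs of single genes, the 6 with a constant sign reached it (0.375 after Benjamini-Hochberg adjustment over these 9). The pairs with the Bcl2a1 sum also reached 0.25 in this test and were outside that adjustment.

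Summed TPM of the 6 survival genes was 695, 344 and 512 in replicates 1, 2 and 3, and that of the 4 death genes was 579, 259.8 and 394. The survival sum exceeded the death sum by a log2 ratio of 0.26, 0.41 and 0.38 in the same order, with a mean of 0.35 ± 0.07 (SD, n = 3). Both sums rested on few genes. Bcl2l11 made up 94.8%, 88.9% and 93.6% of the death sum, and Mcl1 made up 54.8%, 53.1% and 60.4% of the survival sum. Without Mcl1 the ratio reversed to -0.84, and without Bcl2l11 it was 4.15. Both sums take in all isoforms of a gene, and processed transcripts with no coding sequence held 45.7% ± 1.96 of the TPM of Bcl2l11. The ratio describes RNA on chromatin and was not set against protein.

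**Figure D2:**
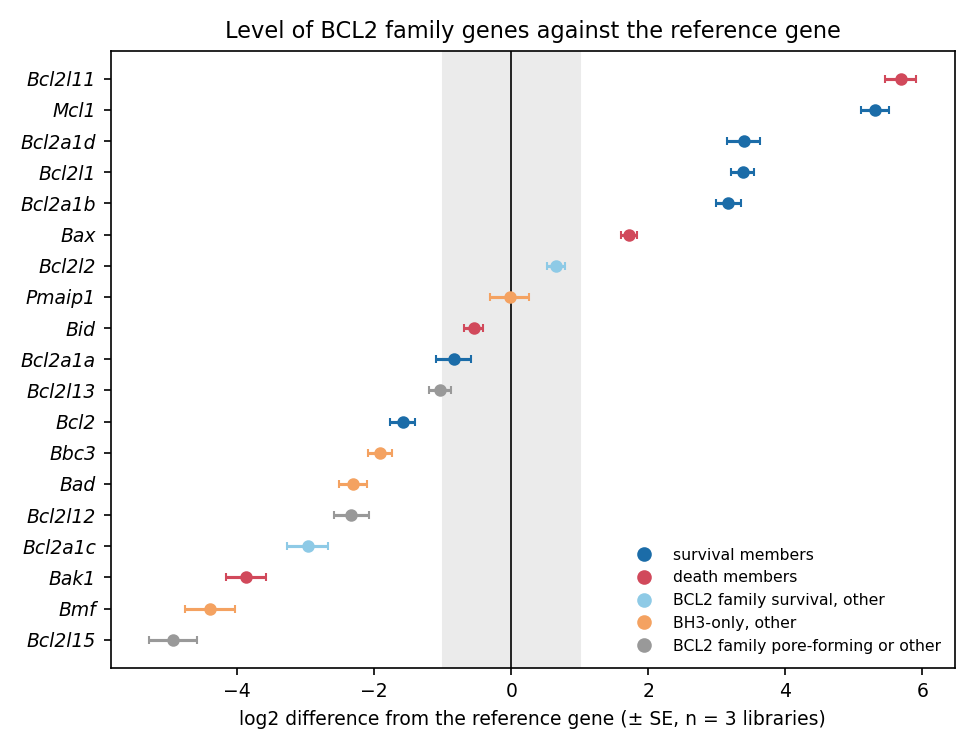
Difference of each BCL2 family gene from the reference gene on log2(TPM + 0.1), with SE over 3 libraries; the grey band marks 2-fold either way and colours mark the role. The 5 genes farthest to the right are Bcl2l11 and 4 survival genes, and in these alignment-based values no family gene outside the 10 lies right of the band.

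The Bcl2a1 signal was divided mainly between 2 of its copies. Bcl2a1d took 54.8%, 43.5% and 58.7% of the summed TPM in replicates 1, 2 and 3. Bcl2a1b took 42.1%, 54.0% and 38.8%, so the leading copy changed in replicate 2. Bcl2a1a took 3.10%, 2.54% and 2.48%. The alignment-free table gave a similar division, with 54.1% ± 6.08 (SD, n = 3) for Bcl2a1d, 42.1% ± 6.07 for Bcl2a1b and 3.82% ± 0.382 for Bcl2a1a, and the same change of leader in replicate 2. The low share of Bcl2a1a came with the largest share of words found in no other gene (20.4%). Bcl2a1c, a further family member on chromosome 9, had 4, 2 and 4 expected counts and 0, 0 and 1 in the alignment-free table.

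Overlapping genes add to this uncertainty. Gm29094 (chr9:89199379-89215471), a gene annotated as protein-coding on the strand of Bcl2a1b, begins within it. Gm29094 shares 372 of its 634 words with Bcl2a1b and 236 with another gene, Mthfs. Gm29094 had 60.1, 17.2 and 28.0 TPM. Counting it as a further copy raised the sum to 281, 124 and 148 TPM and lowered the share of Bcl2a1d from 52.4% to 42.7%. Counted with Bcl2a1b instead, it would put Bcl2a1b above Bcl2a1d in each library of the alignment-based table. In the alignment-free table Bcl2a1d would still lead in replicate 3. Which copy leads thus depends on how Gm29094 is counted. Gm10634 is annotated as antisense across Bcl2a1d and had 41.6, 18.5 and 32.7 TPM. Whether strand was used in counting is not given in the sources used here, so reads of Bcl2a1d and Gm10634 cannot be told apart with certainty. The same holds for Bak1, where 2 entries named Ggnbp1 lie on the opposite strand. One had 2.80, 2.83 and 2.60 TPM, above Bak1 in each library, and the other 0.43, 0.44 and 0.52, below Bak1 in replicate 1 and above it in replicates 2 and 3. On the strand of Bid, the unverified gene Gm44260 within its span had 3.61, 2.34 and 3.32 TPM, and on that of Bcl2, Gm37053 had 1.16, 0.50 and 0.81.

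**Figure D3:**
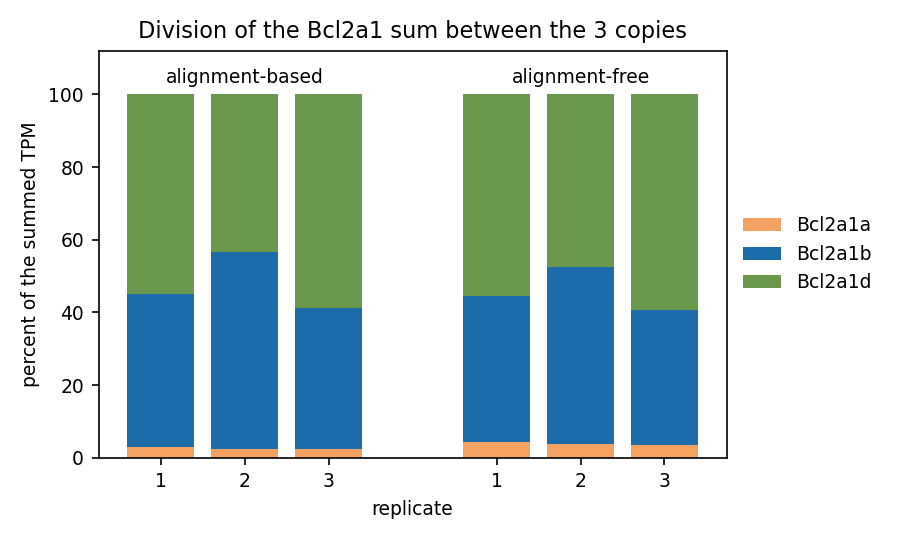
Percent of the summed TPM of the 3 Bcl2a1 copies that each copy took, per replicate, in the alignment-based (left) and alignment-free (right) tables. Bcl2a1d and Bcl2a1b divide nearly all of it, with Bcl2a1b ahead in replicate 2, and Bcl2a1a takes 2.48% to 4.24%.

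Isoform tables placed most of the TPM of Bcl2l1, Bcl2l11 and Bcl2 in isoforms that end near the 5′ end of the gene. TPM is scaled for length, so these shares are not shares of reads. Bcl2l1 spans 51.1 kb, yet 73.7% ± 4.96 (SD, n = 3) of its transcript TPM was assigned to Bcl2l1-205, a protein-coding isoform that ends 7.1% of the way along the gene. The isoform across the whole gene, Bcl2l1-201, took 11.5% ± 1.88. In TPM, Bcl2l1-205 had 61.6, 39.3 and 63.2 and Bcl2l1-201 had 9.20, 5.63 and 11.1, with no overlap.

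In Bcl2l11, a gene of 36.5 kb, Bcl2l11-202 (protein-coding) took 39.1% ± 1.24 and Bcl2l11-208 (a processed transcript with no coding sequence) took 31.1% ± 5.20. They end 14.9% and 10.9% of the way along. In the alignment-free table these shares were 22.3% ± 3.45 and 17.95% ± 4.74. There the leader was the processed transcript Bcl2l11-207, at 25.7% ± 2.20, and Bcl2l11-204, a coding isoform that ends 88.8% of the way along, took 20.9% ± 5.58 against 0.222% in the alignment-based table. The longest isoform, Bcl2l11-205, had 59.4, 23.0 and 53.7 TPM against 222, 88.5 and 142 for Bcl2l11-202. Processed transcripts together held 45.7% ± 1.96 of the gene's TPM, and 46.5% ± 2.46 in the alignment-free table.

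Bcl2 spans 176 kb. Bcl2-202, a single exon of 2841 bases that ends 2.2% of the way along, took 62.3% ± 7.58, and Bcl2-201, which spans the gene, took 37.7% ± 7.58. In Bid, of 24.9 kb, the processed transcript Bid-202 took 44.6% ± 5.95 and the coding isoform Bid-201 33.6% ± 6.45. Bcl2-201 has 7191 bases, and Bid-201 has 2189 against 458 for Bid-202. Bcl2-202 and Bid-202 therefore held a smaller share of reads than of TPM, and shares of reads were not computed. Each of these short leading isoforms lay largely in introns of the longest-span coding isoform. The intronic part was 80.8% of the bases of Bcl2l11-202, 69.7% of Bcl2l1-205, 69.2% of Bcl2-202 and 84.7% of Bid-202. The tables do not separate these isoforms from unspliced RNA that holds the same intronic bases, and the part of unspliced RNA in the shares was not tested.

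**Figure D4:**
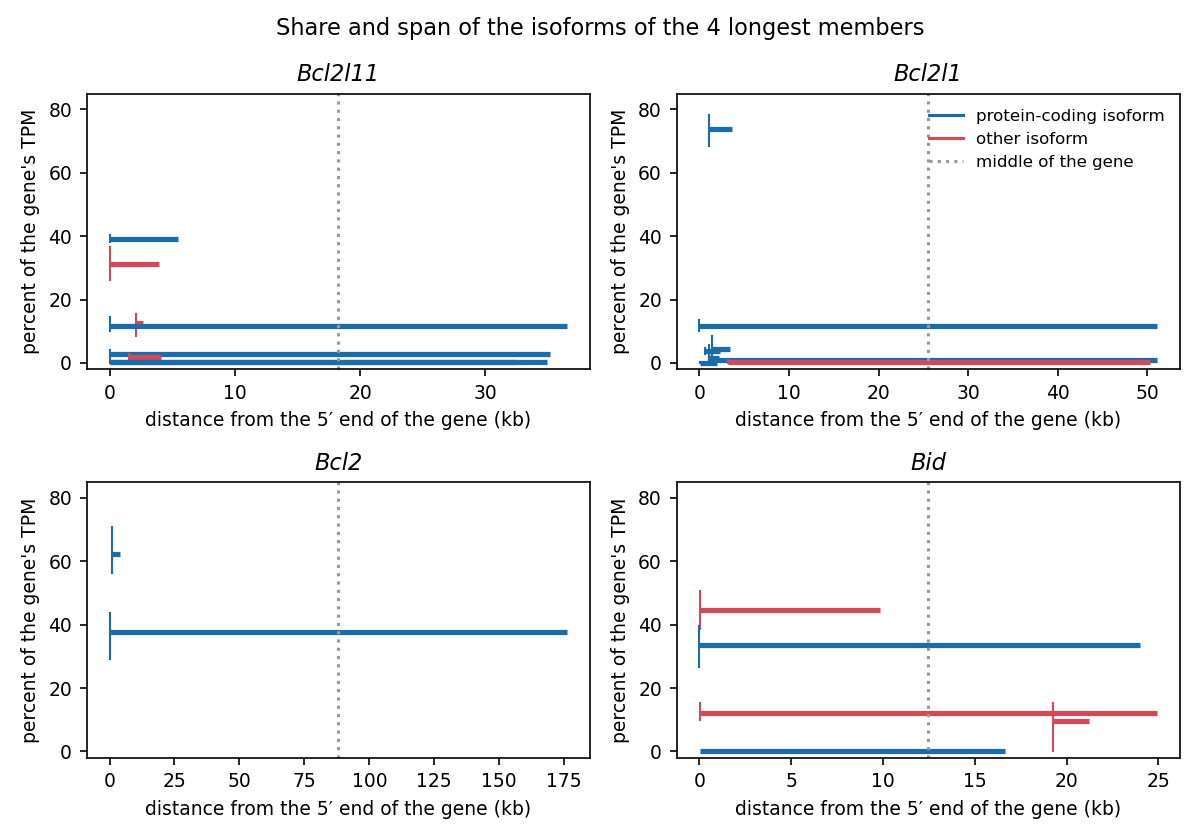
Isoforms of the 4 longest genes, each a horizontal line from its first to its last base in kb from the 5′ end of the gene, at the height of its mean percent of the gene's TPM; thin vertical lines give the range over 3 libraries and the dotted line the middle of the gene. The highest line in each panel ends left of the middle.

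Isoforms that end before the middle of the gene held 87.2% ± 1.30 of the TPM of Bcl2l1, 84.8% ± 2.52 of Bcl2l11, 62.3% ± 7.58 of Bcl2 and 44.6% ± 5.95 of Bid (SD, n = 3). Over the 5161 protein-coding genes of at least 20 kb with 2 or more isoforms and a mean TPM of at least 1, the median was 4.16%. Over the 3191 of them that have such an isoform it was 18.9%, and 14.6% of these held more than 50% there. In the alignment-free table the shares were 85.6% for Bcl2l1, 68.9% for Bcl2l11, 87.1% for Bcl2 and 48.8% for Bid.

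Among the shorter genes, Mcl1-201, the full-length isoform, took 100.0% of Mcl1 in the alignment-based table, with Mcl1-202 at 0. The alignment-free table gave 33.9% ± 13.0 to Mcl1-202, which ends 46.4% of the way along. The division of Mcl1 thus rests on the method. For Bax, the coding isoforms Bax-201 and Bax-203 took 45.6% ± 10.8 and 39.2% ± 6.07 in the alignment-based table, and 24.9% ± 5.47 and 21.2% ± 2.68 in the alignment-free table. The retained-intron isoform of Bax took 9.89% ± 5.25 in the alignment-based table and 47.8% ± 4.91 in the alignment-free table. Of its bases, 43.6% lay in introns of the longest-span coding isoform, as did 42.7% of those of Bax-203. With 10.4 to 18.6 expected counts for the whole gene, the isoforms of Bak1 were poorly resolved. The coding isoform Bak1-202 had 0.53, 0.21 and 0.23 TPM, and Bak1-201, annotated for nonsense-mediated decay, 0, 0.12 and 0 in the alignment-based table. In the alignment-free table Bak1-202 had 0.517, 0.234 and 0.0908 TPM and Bak1-201 0, 0.261 and 0.346, so that Bak1-201 led in replicates 2 and 3. Each Bcl2a1 copy has a single annotated isoform.

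Replicates were compared on log2 CPM (depth-scaled counts after TMM normalisation). Bcl2l11 deviated from its mean by 0.43, -0.57 and 0.14 in replicates 1, 2 and 3, and Mcl1 by 0.26, -0.48 and 0.22. Replicate 2, made from the least RNA, was thus the low library for the 2 highest genes. Without it, the SD of Mcl1 fell from 0.42 to 0.04 and that of Bcl2l11 from 0.51 to 0.21. Leaving out the most distant library lowers an SD in any case. Among the other genes lowest in replicate 2, the SD fell from 0.30 to 0.12 for Bcl2l1 and from 0.56 to 0.40 for Bcl2a1d. For Bcl2a1a it rose from 0.57 to 0.66. The median SD over expressed genes fell from 0.27 to 0.19, and to 0.20 without replicate 1. Bcl2l1 deviated by 0.07, -0.33 and 0.26 and Bcl2a1d by 0.56, -0.56 and 0.01.

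In contrast, Bid had an SD of 0.04, Bcl2 of 0.11 and Bax of 0.17, against a median of 0.27 over 12931 expressed genes. On log2(TPM + 0.1) the SD of Bcl2 was 0.38, above the median of 0.31 on that scale, while Bid (0.14) and Bax (0.12) were below it. Bax was highest in replicate 2, at 0.18. Of the 10 genes, 5 were lowest in replicate 2, where 38.3% of expressed genes were lowest, and 4 were also highest in replicate 1, a pattern found in 24.4% of expressed genes. In all, 8 of the 10 were highest in replicate 1, where 36.3% of expressed genes were highest. The 8 include the 3 near-identical Bcl2a1 copies, Bid with a deviation of 0.04, and Bak1, which did not pass the filter of expressed genes. In TPM, Bax and Bcl2l1 were highest in replicate 1 as well. The macrophage markers had a median deviation of 0.13 in replicate 2 and of -0.14 and -0.15 in replicates 1 and 3. The part of RNA input in these differences was not tested.

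**Figure D5:**
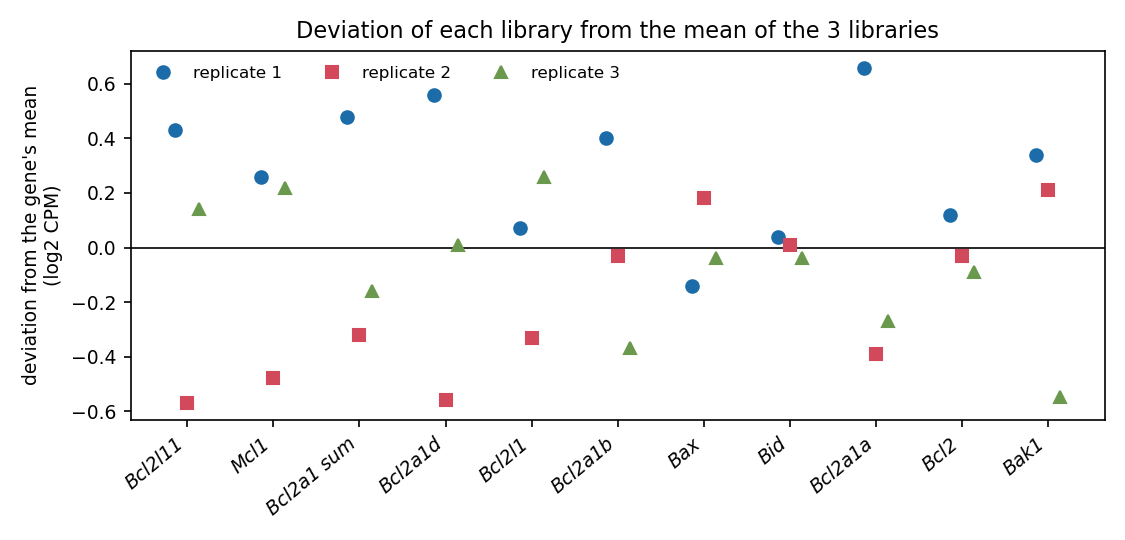
Deviation of each library from the mean of the 3 libraries (log2 CPM), 1 point per replicate. Replicate 2 is lowest for Bcl2l11, Mcl1, Bcl2l1, Bcl2a1d and Bcl2a1a, and the points of Bid lie within 0.04 of 0.

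Of 14 other BCL2 family genes, 9 passed the filter, of which 6 were called lower than the reference gene and 3 were in neither class (limma), where 44.4% of protein-coding genes tested were called lower. Among survival genes, Bcl2l2, which encodes BCL-W, had 11.0, 10.1 and 11.8 TPM and was in neither class. Bcl2a1c was called lower and Bcl2l10 was at 0. Among BH3-only genes, Pmaip1, which encodes NOXA, was the highest, with 12.4, 3.90 and 6.45 TPM. Bbc3, which encodes PUMA, had 2.10, 1.65 and 1.58 TPM and was called lower, as were Bad (mean 1.34) and Bmf (mean 0.263). Bik averaged 0.077 TPM and Hrk was at 0, both below the filter. The mean of Bcl2l11 was 383 ± 159 TPM (SD, n = 3), against 7.58 ± 4.35 for Pmaip1. Of the other relatives, Bcl2l13 averaged 3.34 TPM and was in neither class, and Bcl2l12 (1.37) and Bcl2l15 (0.137) were called lower. The tables disagreed on Bcl2l15, which had 0.23, 0.08 and 0.10 TPM in the alignment-based table and 66.9, 37.4 and 85.4 in the alignment-free table, above Bax there in each library. Nearly all of the latter was assigned to the processed transcript Bcl2l15-204, at 66.7, 37.3 and 85.4 TPM, so the level of Bcl2l15 is uncertain. The alignment-free means of Bcl2l2 (18.3 TPM), Bbc3 (5.51), Bcl2l12 (3.57) and Bcl2l13 (6.55) were also higher than the alignment-based ones. The retained-intron isoform Bcl2l2-202 had 7.02, 12.7 and 13.6 TPM in the alignment-free table. In the alignment-based table Bok was at 0 and Bcl2l14 averaged 0.090, below the filter.

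Other genes of the apoptosis pathway were mixed, with 15 of 28 called higher, 7 lower and 6 in neither class (limma), beside 19.5% higher and 44.4% lower over protein-coding genes. All 5 genes of a list chosen by hand for MCL1 turnover were called higher (15.1% over all genes, 19.5% over protein-coding genes). The part of each listed gene in MCL1 turnover was not tested here. The highest was Huwe1, which encodes a ubiquitin ligase of MCL1, at 171 ± 28.2 TPM (SD, n = 3). The lowest was Fbxw7, which encodes a substrate receptor of another ligase, at 17.9 ± 2.63. In the death receptor branch, Cflar, which encodes the caspase 8 inhibitor FLIP, had 391, 182 and 267 TPM, and the adaptor gene Fadd averaged 0.940. Among caspase inhibitors and their antagonists, Birc3 (cIAP2) had 290.0, 150.3 and 153 TPM and Birc5 (survivin) averaged 0.870, with 6.42 in the alignment-free table. Of the apoptosome and caspases, Apaf1 averaged 119 ± 28.8 TPM, while 4 of the 6 genes were called lower. Of the mitochondrial partners, Vdac2 averaged 29.4 TPM and Vdac3 2.81.

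By level over the 3 libraries, the protein-coding genes nearest to Bcl2l11 were Tnf, Rsrp1 and Ptprc, at Euclidean distances of 0.34, 0.37 and 0.38 on log2(TPM + 0.1). Those nearest to the Bcl2a1 sum were Aoah (0.14), Ms4a14 (0.20) and Wdr26 (0.23). With 3 libraries this likeness is mainly one of level.

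Promoter windows of 300 bases from RefSeq (GRCm38.p6, 250 before and 50 after each start) matched all 10 genes with 13 windows. The Bcl2a1 promoters are shown because they are as alike as the coding sequences. Capitals mark 2 words picked after the sequences were viewed, TGANTCA and GAGGAAGT, each searched on both strands. The stretches lie before the annotated genes, at chr9:88956790-88956849 (+) for Bcl2a1a, chr9:89199099-89199158 (+) for Bcl2a1b and chr9:88731915-88731974 (-) for Bcl2a1d.
Bcl2a1a: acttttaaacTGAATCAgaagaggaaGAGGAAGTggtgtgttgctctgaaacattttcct
Bcl2a1b: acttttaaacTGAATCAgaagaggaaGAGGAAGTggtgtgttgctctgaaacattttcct
Bcl2a1d: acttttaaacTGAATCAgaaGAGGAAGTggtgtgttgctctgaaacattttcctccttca
Aligned bases of the windows were 99.2% identical between Bcl2a1a and Bcl2a1b, 98.0% between Bcl2a1a and Bcl2a1d and 98.8% between Bcl2a1b and Bcl2a1d, where the last 2 alignments had a gap of 6 bases. The stretches printed for Bcl2a1a, with a mean of 4.18 TPM, and Bcl2a1b, with 65.7, were the same. TGANTCA was found in 7.81% of all 32851 windows and GAGGAAGT in 3.20%. Among the other 7 genes, GAGGAAGT was also in a window of Bak1.

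The κB consensus, the motif class bound by NF-κB, was matched in 8.46% of all windows and, among the 13, in 1 window of Bcl2l1. Its 10 bases are in capitals in the stretch at chr2:152830938-152830967 (- strand), which lies in an exon of Bcl2l1-203.
Bcl2l1: tgtttgtgGGGGGTCTCCagcatacgcctc
TATAAA was found in 13.6% of all windows and in none of the 13. A match describes letters only, and a missing match says nothing of sites outside these windows.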

How the data were processed

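Per the labels, RNA of the chromatin fraction was sequenced in 3 biological replicates of 1 group. The authors deposited, per library, a gene and a transcript table from alignments to the transcriptome, with expected counts, TPM and FPKM, and a transcript table made without such alignments, with estimated counts and TPM. The deposited transcript table also gives each isoform as a percent of its gene, and the deposited gene table gives interval bounds of TPM, treated as a score and not used in a test. Per the deposited notes the assembly is mm10 and the annotation M21. Neither the programs nor the use of strand is given in the sources used here.

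Identifiers were joined to annotation M21. Levels are log2(TPM + 0.1) minus the library median of the 8765 nuclear genes that encode proteins and average a TPM of 1 or more. limma 3.58.1 (treat, 2-fold band, trended variance, two-sided) was fitted to the 18387 genes that average a TPM of 0.1 or more, with Benjamini-Hochberg adjustment over all of them and a threshold of 0.05, after a test on simulated data. edgeR 4.0.16 gave log2 CPM (TMM, prior count 2) from rounded expected counts, and DESeq2 1.42.0 size factors and an edgeR quasi-likelihood test were alternatives. Isoform shares were computed from transcript TPM. Rows that name no annotated gene held 0.200% to 1.26% of expected counts and were left out of tests and scaling, while the totals given cover all rows. Intervals were not computed, and 3 counts of the total, 1.64e-05% to 2.36e-05%, are the limit that a count of 0 allows, for counting error only.

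Members, lists and alternatives were chosen with earlier results of these data known. Named genes are the 10 members, the other BCL2 family genes, the highest and lowest gene of each other pathway role, the 3 genes nearest in level to the highest member and to the Bcl2a1 sum, the 2 leading isoforms per member, and overlapping genes on which a result turns. The lowest gene of 1 role is not reported here. Protein sequences were not used here.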

Additional observations from a re-analysis of the deposited data

How the results depend on the processing

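Under the alternatives 5 or 6 of the 10 genes were called higher than the reference gene, with Bax lost when reference genes started at a TPM of 5 (0.52) or the band was 4-fold, and the copies counted as 1 when summed; leaving out any replicate gave 6. The number called lower, 2 as reported, was 1 with a pseudocount of 1, a mean TPM of at least 1, reference genes from a TPM of 0.1, a 4-fold band or the alignment-free table, 4 with reference genes from a TPM of 5 or no band, and 1 to 2 without 1 replicate (1 without replicate 2 or 3). Of these losses, Bak1 is removed by the filter of a mean TPM of at least 1, and Bcl2 is lost in the others. The survival to death log2 ratio of 0.35 was 0.26 in the alignment-free table, 0.63 from expected counts, -0.84 without Mcl1 and, in an alternative chosen after seeing the data, 4.15 without Bcl2l11. Among neighbours, Bcl2a1d minus Bcl2l1 was 0.64 in the alignment-free table and reversed in the range without 1 replicate (-0.19 without replicate 1 to 0.12 without replicate 3), and Bcl2l1 minus Bcl2a1b reversed to -0.27 in the alignment-free table and ranged from -0.09 without replicate 3 to 0.38 without replicate 2. The mean TPM of Bcl2l15 moved from 0.137 to 63.2 with the alignment-free table, a comparison added after seeing the data. Apart from the effects of the filter, the band and the omitted genes, the cause was not tested. No paired analysis was possible because the series holds a single group. Depth limits Bak1 and Bcl2a1c, which rest on at most 18.6 expected counts per library. The calls of Bmf (19, 11 and 19 expected counts) and Bcl2l15 (2, 1 and 2) rest on few reads as well.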
